A study of Mus musculus with 19 samples.

Results

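The unfolded protein response and the integrated stress response were followed in mouse livers 2 h after 85% liver resection through 35 named genes, each taken by its symbol and read from 1 probe set. All 35 passed the filter on low values (over log2 4 on at least 4 arrays), as did 8515 of the 18193 named genes on the array, the 35 included. They comprised 9 chaperones of the endoplasmic reticulum (ER), 5 lectin chaperones and disulfide isomerases, 7 genes of ER-associated degradation, 3 genes of the translocon, 6 sensors and transcription factors, and 5 target genes of the integrated stress response. The ER folds the proteins that a cell secretes, and hepatocytes secrete most plasma proteins. When unfolded proteins accumulate, the membrane sensors IRE1 (gene Ern1), PERK (gene Eif2ak3) and ATF6 signal through spliced XBP1, ATF4 and cleaved ATF6, which raise transcription of chaperones and of the machinery that removes misfolded proteins. PERK also slows translation by phosphorylating eIF2alpha, a step shared with kinases that sense amino acid shortage or other stress, and this shared arm is the integrated stress response.

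The 19 arrays, 1 per male C57BL/6 mouse of 10 to 12 weeks, fell into 4 genotypes: 4 Ager-null/Myd88-null, 6 Ager-null, 4 Myd88-null and 5 WT mice. Ager encodes RAGE, a receptor for advanced glycation end products and for proteins released by damaged cells, and Myd88 encodes an adaptor of Toll-like and interleukin-1 family receptors. Every mouse, WT included, had undergone the resection, so no value here refers to an unoperated liver, and the construction of the null alleles was not stated in the labels. Myd88 was at or below 3.86 (log2) on each of the 8 arrays of both Myd88-null genotypes, against at least 5.24 on each array of the others, while the Ager probe sets lay under the filter in every group and check nothing.

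Liver markers were high and kidney markers were low, although the RNA protocol in the labels names glomeruli as its source. All 14 measured hepatocyte markers passed the filter, against 1 of 11 kidney markers (Podxl) and 0 of 9 T and NK cell markers. The array Myd88-null 4 stood apart, with a median correlation of 0.9654 with the other arrays, against at least 0.9785 for the rest. Each sample description also carries an S number whose meaning is not stated. All 6 Ager-null arrays have S numbers 13 to 20, a range they share with only 1 WT array (WT 5) and 1 Myd88-null array (Myd88-null 4), and no Ager-null/Myd88-null array lies in it. Genotype and S range can therefore be separated for Ager-null livers only through those 2 arrays. For a block in the fit, the arrays were divided here by S number into ranges of 1 to 6, 7 to 12 and 13 to 20. The sample descriptions give no such ranges, so results with this block depend on that choice. Results with the S range as a block are given with the calls. In RNA from whole tissue, fewer cells of a type and less RNA per cell cannot be told apart.

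Genes of the unfolded protein response are known for short promoter motifs, so the members' promoters were searched in RefSeq windows of 250 bases before to 50 bases after the start of each gene (GRCm38.p6), which held 30 of the 35. The ER stress element (ERSE), bound by NF-Y and ATF6, was searched on both strands as CCAAT, any 9 bases and CCACG, and 9 of the 30 windows held it, against 37 of 27025 genes in the table (0.137%). These 9 were Hspa5, Hsp90b1, Dnajc3, Creld2, Calr, Canx, Pdia6, Syvn1 and Derl3. The related ERSE-II, searched as ATTGG, any 1 base and CCACG, was found in Dnajb11 and Herpud1 (0.0444% of all genes). The C/EBP-ATF response element TTGCATCA, bound by ATF4 dimers, was found in Chac1 and Herpud1 (1.03% of all genes), and the XBP1 motif TGACGTGG in 0 of 30 windows (0.714% of all genes). ERSE, ERSE-II and the XBP1 motif share the letters CCACG, and no motif found in these 30 windows overlapped another. The promoter of Creld2, the member with the smallest p-value in any comparison, is shown whole before the start site, and the other stretches show 20 bases on each side of the motif in called and uncalled members. Sequences are from RefSeq on the strand of the gene, and capitals mark the motif.
Creld2 promoter (chr15:88819396-88819645, plus strand): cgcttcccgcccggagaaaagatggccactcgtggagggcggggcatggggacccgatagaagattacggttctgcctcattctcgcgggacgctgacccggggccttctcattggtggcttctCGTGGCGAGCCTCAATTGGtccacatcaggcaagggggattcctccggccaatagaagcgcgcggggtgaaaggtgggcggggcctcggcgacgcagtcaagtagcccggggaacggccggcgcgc
Pdia6 ERSE (chr12:17266471-17266529, plus strand): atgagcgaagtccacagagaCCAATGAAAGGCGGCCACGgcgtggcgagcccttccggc
Syvn1 ERSE (chr19:6046512-6046570, plus strand): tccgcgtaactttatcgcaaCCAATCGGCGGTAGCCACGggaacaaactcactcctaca
Hspa5 ERSE (chr2:34772005-34772063, plus strand): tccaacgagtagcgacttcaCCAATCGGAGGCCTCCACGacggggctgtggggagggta
Calr ERSE (chr8:84847055-84847113, minus strand): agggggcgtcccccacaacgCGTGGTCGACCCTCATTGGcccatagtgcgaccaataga
Herpud1 ERSE-II (chr8:94386357-94386407, plus strand): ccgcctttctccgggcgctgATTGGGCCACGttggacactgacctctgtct
Chac1 CARE (chr2:119351029-119351076, plus strand): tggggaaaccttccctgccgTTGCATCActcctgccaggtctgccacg
In Creld2 and Calr the element stands in reverse orientation. A match describes the letters of the window only.

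Ager-null livers had higher levels of the ER chaperone gene Creld2 and of the disulfide isomerase gene Pdia6 than WT livers, and lower levels of the transcription factor gene Atf4. These 3 were the members called at an adjusted p under 0.05, and 1.26% of all tested genes were called in that comparison (0.834% higher and 0.423% lower). That split, 71 higher and 36 lower, was 50 and 41 with median centring, and a fit that blocked on the S range turned it to 20 and 39. Of the 35 members, 27 were above 0 in this difference, against 52.2% of all tested genes, with a median log2 change of 0.20 beside 0.02 for all genes. With arrays centred on their medians Pdia6 missed the threshold, which left 1 member higher and 1 lower. Ager-null/Myd88-null livers, set against Ager-null livers, had lower levels of Creld2, Pdia6, Sel1l and Syvn1, where the last 2 form the core of an ER ubiquitin ligase. In that comparison 2.44% of all tested genes were called (0.846% lower; 136 higher and 72 lower, against 62 and 93 with median centring), 25 of 35 members were below 0, 56.3% of all genes were above 0, and the members' median was -0.20 beside 0.04 for all genes. Both comparisons rest on the same 6 Ager-null livers. With the S range as a block 26 of 35 were above 0 in Ager-null against WT livers, with Hyou1, Atf6 and Sesn2 turned below 0 and Derl2 and Sec61b above it. Without the filter on low values, Creld2 was the 1 member called in each of these comparisons. An Ager-null array was the highest of all 19 for 23 members (65.7%, against 25.4% of all tested genes), and 8 of the 23 came from Ager-null 4. Ager-null/Myd88-null arrays were highest for 2, Myd88-null arrays for 4 and WT arrays for 6. For all tested genes those shares were 24.6%, 33.4% and 16.6%, and WT arrays were highest for 17.1% of members. The lowest array was Ager-null/Myd88-null for 10 members, Ager-null for 6, Myd88-null for 12 and WT for 7 (28.6%, 17.1%, 34.3% and 20%). The shares of all tested genes were 13.4%, 34.5%, 21.7% and 30.4%, in the same order. The members were chosen with earlier results of these data known. Their directions, medians and shares of highest and lowest arrays are therefore a description with no test.

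**Figure D1:**
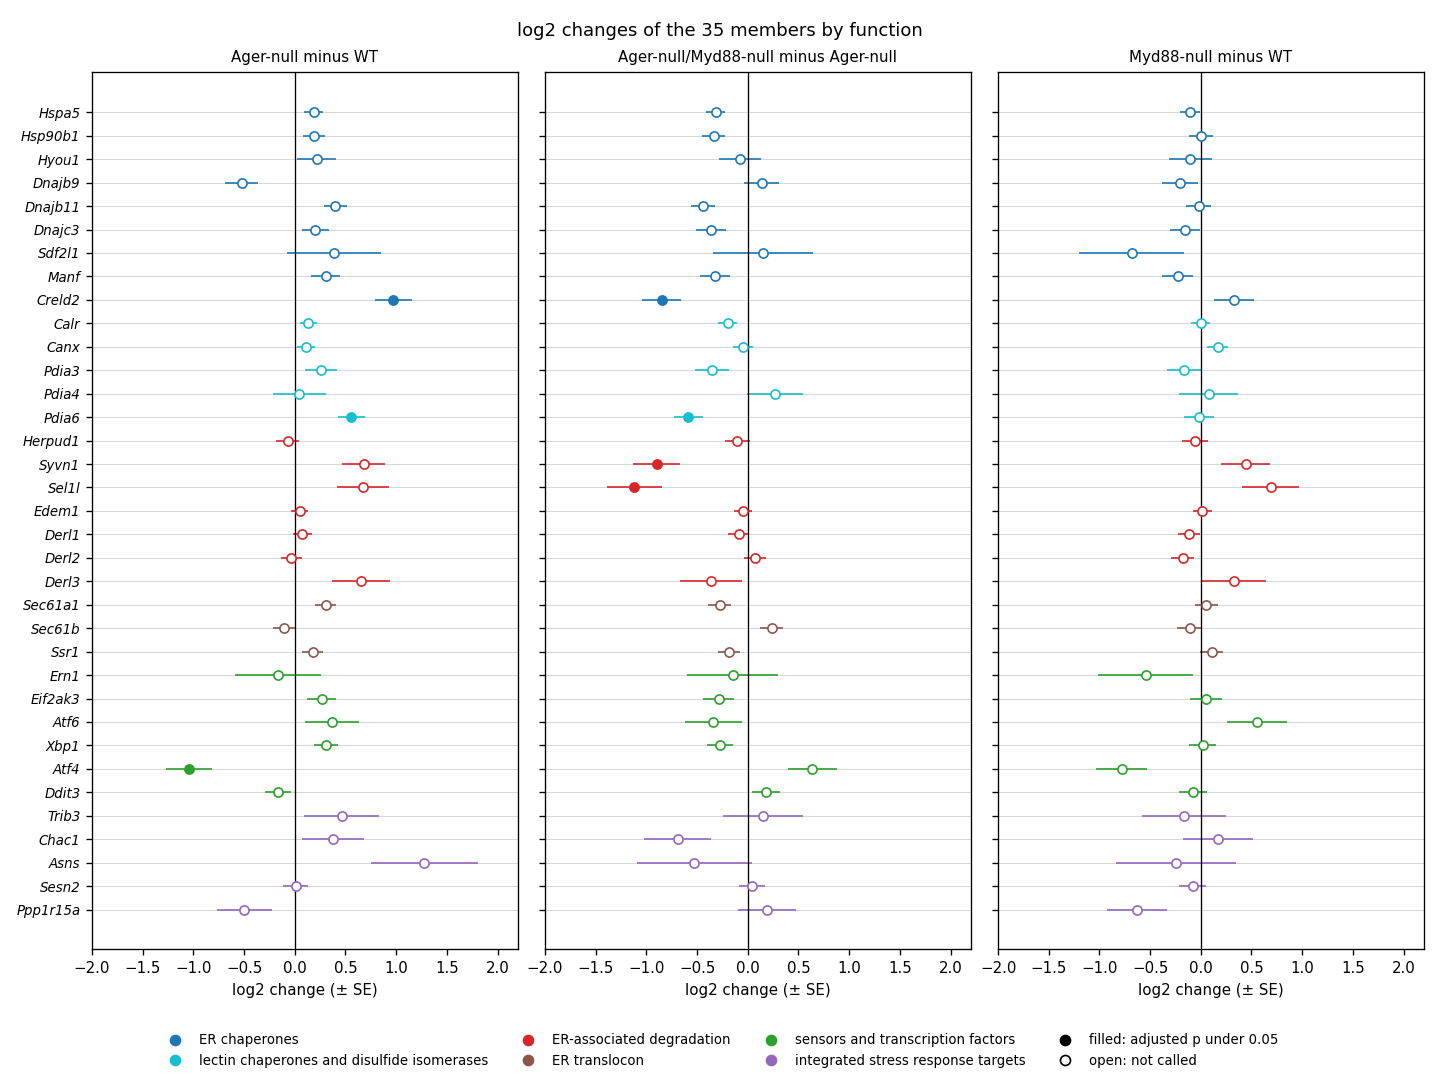
Fitted log2 change (x axis, ± SE) of each of the 35 members (y axis, ordered and coloured by function) for Ager-null minus WT, Ager-null/Myd88-null minus Ager-null, and Myd88-null minus WT livers, with filled points where the adjusted p was under 0.05. Most points lie right of 0 in the first panel (27 of 35) and left of 0 in the second (25 of 35), and 3, 4 and 0 points are filled in the 3 panels.

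Among the 9 ER chaperones, 8 were above 0 in Ager-null against WT livers and 1 of them, Creld2, passed the test. Creld2 encodes a secreted ER protein with disulfide isomerase activity. Creld2 had log2 values of 10.46, 9.98, 10.46 and 10.42 in the 4 Ager-null/Myd88-null livers, against 10.74 to 11.48 with a median of 11.23 in the 6 Ager-null livers. Its values were 10.43, 9.91, 11.03 and 10.77 in Myd88-null and 9.84, 10.25, 10.24, 10.24 and 10.47 in WT livers. The lowest Ager-null liver lay above every WT and every Ager-null/Myd88-null liver, while the Myd88-null livers spread over both ranges. Means (± SD, here and below) were 10.33 ± 0.23 in Ager-null/Myd88-null, 11.18 ± 0.27 in Ager-null, 10.54 ± 0.48 in Myd88-null and 10.21 ± 0.23 in WT livers. The log2 change (± SE, limma, p adjusted over 8515 genes) was 0.97 ± 0.18 (adjusted p = 0.0191) for Ager-null against WT livers (1.96-fold higher) and -0.85 ± 0.19 (adjusted p = 0.0343) for Ager-null/Myd88-null against Ager-null livers. Groups did not overlap for 2 of 35 members in the first comparison (3.7% of all tested genes) and for 6 of 35 in the second (8.39%). The call against WT held when any 1 liver of the 2 groups was left out (change 0.88 to 1.06, adjusted p 0.0108 to 0.0488), and it ended with the S range as a block, at 0.74 ± 0.23 (adjusted p = 0.134). The call against Ager-null livers ended with that block, at -0.56 ± 0.27 (adjusted p = 0.355), and without any 1 of Ager-null/Myd88-null 1, 2, 3 or 4 or Ager-null 1, 2, 3 or 4 (change -0.90 to -0.73, adjusted p 0.0511 to 0.117).

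Hspa5, which encodes the ER Hsp70 chaperone BiP, and Sdf2l1, which encodes a partner of a BiP co-chaperone, are given by sample as the chaperones with the highest mean and the largest SD over the 19 arrays. Hspa5 had log2 values of 13.82, 13.67, 13.54 and 13.70 in the 4 Ager-null/Myd88-null livers, against 13.84 to 14.21 with a median of 13.98 in the 6 Ager-null livers. Its values were 13.56, 13.65, 13.81 and 13.81 in Myd88-null and 13.68, 13.81, 13.86, 13.84 and 13.89 in WT livers. All 6 Ager-null livers lay above all 4 Ager-null/Myd88-null livers, and they overlapped the WT livers. The change of Hspa5 was -0.32 ± 0.10 (adjusted p = 0.0841) for Ager-null/Myd88-null against Ager-null livers, and 0.19 ± 0.09 (adjusted p = 0.244) for Ager-null against WT livers. Sdf2l1 had log2 values of 7.87, 7.90, 8.9999 and 8.23 in the 4 Ager-null/Myd88-null livers, against 6.88 to 8.75 with a median of 8.32 in the 6 Ager-null livers. Its values were 7.78, 7.08, 8.15 and 5.11 in Myd88-null and 7.57, 7.20, 7.08, 7.91 and 8.78 in WT livers. The groups overlapped, and the lowest value was that of the array Myd88-null 4. The change of Sdf2l1 was 0.39 ± 0.47 (adjusted p = 0.652) for Ager-null against WT livers.

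Dnajb11, which encodes an Hsp40 partner of BiP, averaged 9.49 ± 0.03 in Ager-null/Myd88-null, 9.93 ± 0.17 in Ager-null, 9.51 ± 0.30 in Myd88-null and 9.53 ± 0.10 in WT livers. The Ager-null livers lay above all Ager-null/Myd88-null livers, and the changes, -0.44 ± 0.12 (adjusted p = 0.0594) against Ager-null livers and 0.40 ± 0.11 (adjusted p = 0.0718) for Ager-null against WT livers, missed the threshold. With median centring, quantile normalization or a fit of those groups alone, the first passed it (adjusted p 0.0392 to 0.049). It also passed in the fit on means of probe sets (adjusted p = 0.0412), where its change was the same because Dnajb11 has 1 probe set. With the S range as a block both were smaller, at -0.17 ± 0.18 (adjusted p = 0.735) and 0.18 ± 0.15 (adjusted p = 0.637). Hsp90b1, which encodes the ER Hsp90 (GRP94), averaged 12.96 ± 0.19 in Ager-null/Myd88-null, 13.29 ± 0.16 in Ager-null, 13.11 ± 0.19 in Myd88-null and 13.10 ± 0.11 in WT livers. Dnajc3, which encodes the co-chaperone p58IPK, averaged 11.02 ± 0.43 in Ager-null/Myd88-null, 11.39 ± 0.11 in Ager-null, 11.03 ± 0.12 in Myd88-null and 11.19 ± 0.15 in WT livers. Manf, which encodes a secreted factor that binds BiP, averaged 12.12 ± 0.10 in Ager-null/Myd88-null, 12.44 ± 0.30 in Ager-null, 11.91 ± 0.21 in Myd88-null and 12.14 ± 0.22 in WT livers. These 3 genes were highest on average in Ager-null livers and were not called here. With the mean of probe sets Hsp90b1 was called in Ager-null/Myd88-null against Ager-null livers, at -0.55 ± 0.14 (adjusted p = 0.0347), against -0.33 ± 0.11 (adjusted p = 0.107) from the 1 probe set. Hyou1, which encodes a large ER Hsp70 relative, averaged 5.83 ± 0.11 in Ager-null/Myd88-null, 5.90 ± 0.18 in Ager-null, 5.58 ± 0.34 in Myd88-null and 5.69 ± 0.53 in WT livers. Dnajb9, which encodes the co-chaperone ERdj4, averaged 11.41 ± 0.24 in Ager-null/Myd88-null, 11.28 ± 0.34 in Ager-null, 11.60 ± 0.09 in Myd88-null and 11.80 ± 0.32 in WT livers. Dnajb9 was the 1 chaperone below 0 in Ager-null against WT livers (-0.52 ± 0.16, adjusted p = 0.092).

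**Figure D2:**
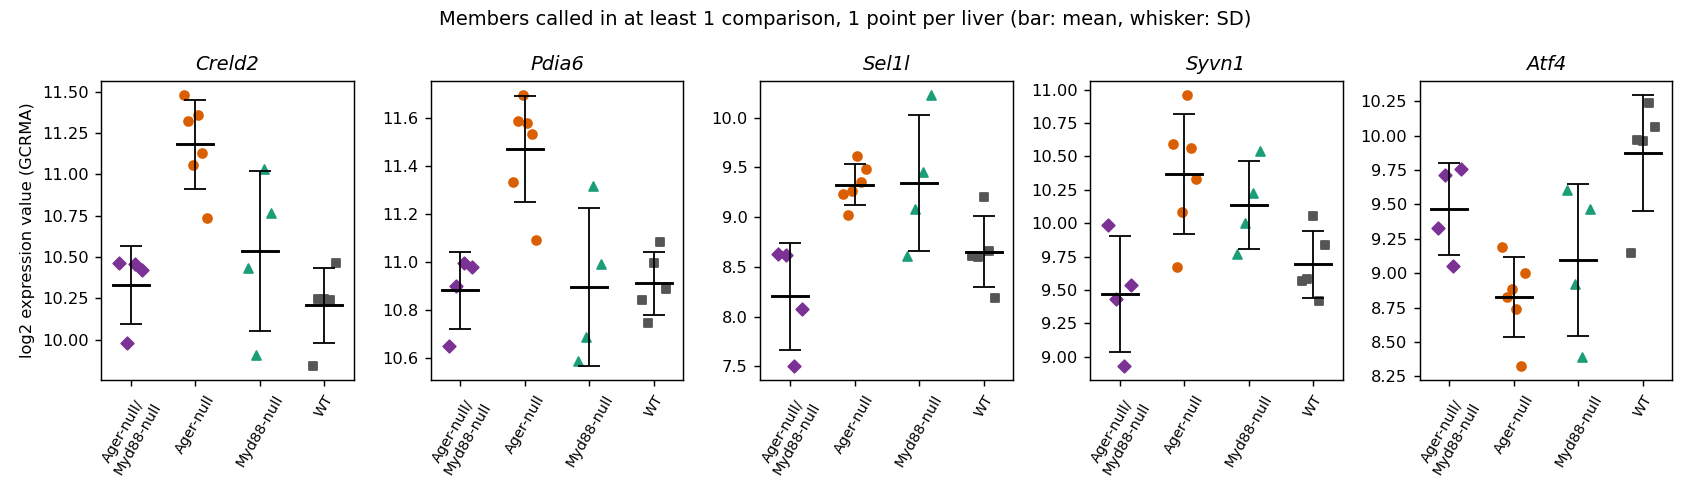
GCRMA log2 expression value (y axis) of the 5 members called in at least 1 comparison, 1 point per liver, for Ager-null/Myd88-null (4), Ager-null (6), Myd88-null (4) and WT (5) livers, with bars at group means and whiskers of 1 SD. For Creld2 and Pdia6 the 6 Ager-null points lie above all Ager-null/Myd88-null and WT points, and for Sel1l above all Ager-null/Myd88-null points.

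The 5 genes for lectin chaperones and disulfide isomerases were all above 0 in Ager-null against WT livers, and Pdia6 passed the test. Pdia6 encodes a disulfide isomerase that works with BiP. Pdia6 had log2 values of 10.65, 10.90, 10.999 and 10.98 in the 4 Ager-null/Myd88-null livers, against 11.09 to 11.70 with a median of 11.56 in the 6 Ager-null livers. Its values were 10.59, 10.69, 11.32 and 10.99 in Myd88-null and 10.84, 10.75, 10.999, 11.08 and 10.89 in WT livers. Every Ager-null liver lay above every Ager-null/Myd88-null and WT liver, and 1 Myd88-null liver (11.32) lay inside the Ager-null range. Pdia6 changed by 0.56 ± 0.13 (adjusted p = 0.0485) in Ager-null against WT livers, and by -0.59 ± 0.14 (adjusted p = 0.0452) in Ager-null/Myd88-null against Ager-null livers. With the S range as a block the values were 0.54 ± 0.16 (adjusted p = 0.129) and -0.57 ± 0.19 (adjusted p = 0.174). With the mean of probe sets the first value was 0.37 ± 0.08 (adjusted p = 0.038). The first call ended with median centring (adjusted p = 0.0596), in a fit of those groups alone (adjusted p = 0.0538) and without any 1 of Ager-null 2, 3, 4 or 5 or WT 1, 2, 4 or 5 (change 0.51 to 0.60, adjusted p 0.0577 to 0.117), and the second without any 1 of Ager-null/Myd88-null 1, 2, 3 or 4 or Ager-null 2, 3, 4 or 5 (change -0.63 to -0.51, adjusted p 0.0626 to 0.125).

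Calr, which encodes the soluble lectin chaperone calreticulin, and Pdia4, which encodes the isomerase ERp72, had the highest mean and the largest SD over the 19 arrays of these 5. Calr had log2 values of 13.45, 13.59, 13.29 and 13.42 in the 4 Ager-null/Myd88-null livers, against 13.37 to 13.73 with a median of 13.68 in the 6 Ager-null livers. Its values were 13.41, 13.48, 13.54 and 13.58 in Myd88-null and 13.62, 13.55, 13.41, 13.44 and 13.49 in WT livers. Of the 6 Ager-null livers, 5 were above every Ager-null/Myd88-null liver, and Ager-null 6 (13.37) was not. Pdia4 had log2 values of 8.25, 7.83, 8.50 and 8.52 in the 4 Ager-null/Myd88-null livers, against 7.31 to 8.55 with a median of 8.11 in the 6 Ager-null livers. Its values were 7.92, 7.81, 8.64 and 7.81 in Myd88-null and 8.59, 8.31, 7.41, 7.39 and 8.13 in WT livers. The 4 groups overlapped throughout, and the change was 0.04 ± 0.26 (adjusted p = 0.938) for Ager-null against WT livers. Canx, which encodes the membrane-bound lectin chaperone calnexin, averaged 12.40 ± 0.13 in Ager-null/Myd88-null, 12.45 ± 0.16 in Ager-null, 12.51 ± 0.10 in Myd88-null and 12.34 ± 0.09 in WT livers. Pdia3, which encodes the isomerase ERp57 that works with both lectin chaperones, averaged 12.39 ± 0.23 in Ager-null/Myd88-null, 12.74 ± 0.20 in Ager-null, 12.32 ± 0.40 in Myd88-null and 12.48 ± 0.22 in WT livers. Their changes for Ager-null against WT livers were 0.11 ± 0.09 (adjusted p = 0.501) for Canx and 0.26 ± 0.16 (adjusted p = 0.348) for Pdia3.

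In ER-associated degradation, which carries misfolded proteins out of the ER to the proteasome, 2 of 7 members were called, both lower in Ager-null/Myd88-null than in Ager-null livers. Syvn1 encodes the ubiquitin ligase HRD1, and Sel1l its scaffold partner. Syvn1 had log2 values of 9.99, 9.43, 8.93 and 9.54 in the 4 Ager-null/Myd88-null livers, against 9.67 to 10.96 with a median of 10.45 in the 6 Ager-null livers. Its values were 9.77, 10.00, 10.22 and 10.54 in Myd88-null and 9.57, 9.58, 10.05, 9.42 and 9.84 in WT livers. The Ager-null/Myd88-null and Ager-null ranges overlapped through 1 liver on each side (9.99 and 9.67). Syvn1 changed by -0.90 ± 0.23 (adjusted p = 0.0476) in Ager-null/Myd88-null against Ager-null livers, and by 0.68 ± 0.22 (adjusted p = 0.0966) in Ager-null against WT livers. Sel1l had log2 values of 8.63, 8.62, 7.50 and 8.08 in the 4 Ager-null/Myd88-null livers, against 9.03 to 9.61 with a median of 9.30 in the 6 Ager-null livers. Its values were 8.61, 9.08, 9.45 and 10.23 in Myd88-null and 8.61, 8.60, 9.20, 8.66 and 8.19 in WT livers. All 6 Ager-null livers lay above all 4 Ager-null/Myd88-null livers, and the highest of all 19 was Myd88-null 4. Sel1l changed by -1.12 ± 0.27 (adjusted p = 0.0431) in Ager-null/Myd88-null against Ager-null livers, and by 0.67 ± 0.25 (adjusted p = 0.141) in Ager-null against WT livers. With the S range as a block these values were -0.54 ± 0.37 (adjusted p = 0.562) for Syvn1 and -0.85 ± 0.45 (adjusted p = 0.424) for Sel1l, and both calls ended. The Syvn1 call also ended without any 1 of Ager-null/Myd88-null 2, 3 or 4 or Ager-null 1, 3, 4, 5 or 6 (change -0.95 to -0.72, adjusted p 0.0684 to 0.195), and the Sel1l call without any 1 of Ager-null/Myd88-null 3 or 4 or Ager-null 1, 3, 4, 5 or 6 (change -1.14 to -0.89, adjusted p 0.0538 to 0.174).

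With the mean of probe sets the Syvn1 call ended (-0.89 ± 0.27, adjusted p = 0.0691), as it did in a fit of those groups alone (adjusted p = 0.0694). The second Syvn1 probe set differed by -0.87 (Ager-null/Myd88-null minus Ager-null), and 3 further Sel1l probe sets by -0.70, -0.87 and -1.55. Herpud1 had log2 values of 13.27, 13.01, 12.80 and 12.69 in the 4 Ager-null/Myd88-null livers, against 12.84 to 13.33 with a median of 12.99 in the 6 Ager-null livers. Its values were 12.93, 13.11, 12.997 and 13.19 in Myd88-null and 13.05, 13.10, 13.08, 13.25 and 13.08 in WT livers. Herpud1, which encodes an ER membrane protein of the HRD1 complex and had the highest mean of the 7, overlapped between all groups, with a change of -0.07 ± 0.11 (adjusted p = 0.757) for Ager-null against WT livers. Edem1, which encodes a lectin that selects misfolded glycoproteins, averaged 10.90 ± 0.12 in Ager-null/Myd88-null, 10.95 ± 0.02 in Ager-null, 10.92 ± 0.18 in Myd88-null and 10.90 ± 0.10 in WT livers. In the probe set read here it varied little, with all 19 livers between 10.68 and 11.10. The other Edem1 probe set (mean 9.82) differed by 0.43 (Ager-null minus WT) and by -0.54 (Ager-null/Myd88-null minus Ager-null). Derl1, a derlin of the ER exit channel, averaged 10.32 ± 0.15 in Ager-null/Myd88-null, 10.41 ± 0.12 in Ager-null, 10.22 ± 0.18 in Myd88-null and 10.34 ± 0.13 in WT livers. Derl2 averaged 11.99 ± 0.03 in Ager-null/Myd88-null, 11.92 ± 0.20 in Ager-null, 11.77 ± 0.21 in Myd88-null and 11.95 ± 0.03 in WT livers. Derl3, the derlin with 1 stray Ager-null liver (6.60), averaged 4.87 ± 0.46 in Ager-null/Myd88-null, 5.23 ± 0.67 in Ager-null, 4.90 ± 0.42 in Myd88-null and 4.58 ± 0.35 in WT livers. None of these 5 was called in any comparison.

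Of the 3 translocon genes, Sec61a1, which encodes the channel through which new proteins enter the ER, had the highest mean and the largest SD over all 19 arrays, which includes differences between genotypes. Sec61a1 had log2 values of 11.95, 11.88, 11.88 and 11.97 in the 4 Ager-null/Myd88-null livers, against 12.15 to 12.30 with a median of 12.19 in the 6 Ager-null livers. Its values were 11.73, 11.86, 12.20 and 11.995 in Myd88-null and 11.73, 11.78, 12.13, 12.16 and 11.68 in WT livers. The Ager-null livers lay close together, from 12.15 to 12.30, above every Ager-null/Myd88-null liver, and 1 WT liver (12.16) lay inside their range. Its changes were -0.28 ± 0.11 (adjusted p = 0.148) against Ager-null livers and 0.30 ± 0.10 (adjusted p = 0.113) for Ager-null against WT livers. Sec61b, a small subunit of the same channel, averaged 11.94 ± 0.15 in Ager-null/Myd88-null, 11.70 ± 0.10 in Ager-null, 11.70 ± 0.28 in Myd88-null and 11.82 ± 0.11 in WT livers. Ssr1, which encodes a subunit of the translocon-associated complex, averaged 10.41 ± 0.06 in Ager-null/Myd88-null, 10.59 ± 0.19 in Ager-null, 10.52 ± 0.17 in Myd88-null and 10.41 ± 0.14 in WT livers. Neither was called, with these changes for Ager-null against WT livers (-0.11 ± 0.11 for Sec61b and 0.18 ± 0.10 for Ssr1).

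Among the sensors and transcription factors, Atf4 was lower in Ager-null than in WT livers, the opposite direction to Creld2 and Pdia6. ATF4 is controlled largely through translation of its mRNA, which an array does not measure. Atf4 had log2 values of 9.33, 9.72, 9.05 and 9.76 in the 4 Ager-null/Myd88-null livers, against 8.32 to 9.19 with a median of 8.86 in the 6 Ager-null livers. Its values were 9.60, 8.92, 8.39 and 9.46 in Myd88-null and 9.14, 9.97, 9.96, 10.24 and 10.06 in WT livers. Of the 5 WT livers, 4 lay above every Ager-null liver, and WT 1 (9.14) lay inside the Ager-null range. Atf4 changed by -1.05 ± 0.23 (adjusted p = 0.0357) in Ager-null against WT livers. In Myd88-null against WT livers it was -0.78 ± 0.25 (adjusted p = 0.125), and in Ager-null/Myd88-null against Ager-null livers 0.64 ± 0.24 (adjusted p = 0.14). With the S range as a block the first value was -1.34 ± 0.34 (adjusted p = 0.0689), and the call also ended without any 1 of Ager-null 2, 3, 4 or 5 or WT 2, 4 or 5 (change -1.06 to -0.95, adjusted p 0.06 to 0.109). The probe set read here is of a type that can bind other transcripts, and the second one over log2 4 differed by -0.84 (Ager-null minus WT). With the mean of all its probe sets, a dim one included, the change was -0.56 ± 0.14 (adjusted p = 0.0516), which ended the call.

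Xbp1, which encodes the factor made active by IRE1 splicing, and Ern1, which encodes IRE1, had the highest mean and the largest SD over the 19 arrays in this group. Xbp1 had log2 values of 12.40, 12.18, 12.06 and 12.18 in the 4 Ager-null/Myd88-null livers, against 12.32 to 12.65 with a median of 12.46 in the 6 Ager-null livers. Its values were 12.16, 12.28, 12.54 and 11.79 in Myd88-null and 12.005, 12.05, 12.18, 12.44 and 12.19 in WT livers. The Ager-null livers were in the upper part of the range, with overlap in every comparison, and the change against WT livers was 0.30 ± 0.12 (adjusted p = 0.153). Ern1 had log2 values of 8.04, 7.98, 7.82 and 7.57 in the 4 Ager-null/Myd88-null livers, against 7.10 to 9.27 with a median of 8.00 in the 6 Ager-null livers. Its values were 6.84, 7.34, 7.08 and 9.25 in Myd88-null and 7.47, 7.40, 9.15, 8.70 and 8.13 in WT livers. Single livers of 3 genotypes exceeded 9 (Ager-null 4, Myd88-null 4 and WT 3), and the change of Ern1 was -0.17 ± 0.42 (adjusted p = 0.844) for Ager-null against WT livers.

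Eif2ak3, which encodes the sensor kinase PERK, averaged 6.75 ± 0.26 in Ager-null/Myd88-null, 7.03 ± 0.25 in Ager-null, 6.82 ± 0.18 in Myd88-null and 6.77 ± 0.24 in WT livers. Atf6, which encodes the sensor that is itself cut into a transcription factor, averaged 7.69 ± 0.47 in Ager-null/Myd88-null, 8.03 ± 0.23 in Ager-null, 8.21 ± 0.81 in Myd88-null and 7.66 ± 0.32 in WT livers. The highest Atf6 value, 9.41, was again that of Myd88-null 4. Ddit3, which encodes CHOP, a factor linked to cell death under lasting ER stress, averaged 4.29 ± 0.02 in Ager-null/Myd88-null, 4.11 ± 0.28 in Ager-null, 4.19 ± 0.18 in Myd88-null and 4.27 ± 0.20 in WT livers. Ddit3 lay close to the filter of log2 4 in every group. None of these 3 was called in any comparison.

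Among the 5 target genes of the integrated stress response 4 were above 0 in Ager-null against WT livers, and none was called in any comparison. Asns, which encodes asparagine synthetase and is induced by ATF4, had the largest SD of the 5 over the 19 arrays. Asns had log2 values of 5.33, 6.33, 6.65 and 5.26 in the 4 Ager-null/Myd88-null livers, against 5.45 to 8.47 with a median of 5.78 in the 6 Ager-null livers. Its values were 5.23, 5.74, 5.47 and 3.15 in Myd88-null and 4.77, 5.10, 5.49, 4.80 and 5.54 in WT livers. Ager-null 4 and Ager-null 6 stood above the other Ager-null livers (7.41 and 8.47), and the lowest of all was Myd88-null 4. The change of Asns was 1.28 ± 0.53 (adjusted p = 0.174) for Ager-null against WT livers, the largest of all members in size and not called. Ppp1r15a had log2 values of 8.06, 7.82, 8.18 and 7.78 in the 4 Ager-null/Myd88-null livers, against 6.77 to 8.56 with a median of 7.93 in the 6 Ager-null livers. Its values were 7.43, 7.74, 7.49 and 7.91 in Myd88-null and 8.11, 7.62, 9.11, 8.50 and 7.998 in WT livers. Ppp1r15a encodes GADD34, which brings a phosphatase to eIF2alpha, and its change was -0.50 ± 0.27 (adjusted p = 0.292) in Ager-null and -0.63 ± 0.30 (adjusted p = 0.254) in Myd88-null livers, each against WT. The highest value was WT 3.

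Trib3, a pseudokinase gene induced by ATF4 and CHOP, averaged 7.01 ± 0.34 in Ager-null/Myd88-null, 6.86 ± 1.02 in Ager-null, 6.24 ± 0.40 in Myd88-null and 6.40 ± 0.43 in WT livers. Chac1, which encodes a glutathione-degrading enzyme, averaged 6.997 ± 0.77 in Ager-null/Myd88-null, 7.69 ± 0.50 in Ager-null, 7.48 ± 0.38 in Myd88-null and 7.31 ± 0.53 in WT livers. Sesn2, which encodes a sestrin that senses leucine, averaged 4.86 ± 0.03 in Ager-null/Myd88-null, 4.82 ± 0.18 in Ager-null, 4.73 ± 0.13 in Myd88-null and 4.81 ± 0.30 in WT livers. Trib3 varied most within Ager-null livers, and the Sesn2 means lay close together. Changes for Ager-null against WT livers were 0.46 ± 0.37 for Trib3, 0.38 ± 0.31 for Chac1 and 0.01 ± 0.12 for Sesn2.

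The mean deviation of each liver from the 19-array mean, taken over members, gives their average level. It does not show whether single genes moved together. Over all 35 members it was -0.06 ± 0.06 in Ager-null/Myd88-null, 0.15 ± 0.12 in Ager-null, -0.10 ± 0.10 in Myd88-null and -0.05 ± 0.07 in WT livers (log2, SD), with the single Ager-null value below 0 at -0.02. For ER-associated degradation it ran from -0.28 to -0.04 in Ager-null/Myd88-null livers, against 0.07 to 0.31 in Ager-null livers. The WT livers ran from -0.23 to -0.001, also below every Ager-null liver. The Myd88-null livers ran from -0.07 to 0.20 and overlapped the Ager-null livers. Changes of single genes of this group in Ager-null against WT livers ran from -0.07 (Herpud1) to 0.68 (Syvn1). For sensors and transcription factors the group means lay between -0.06 and 0.07 and the 4 genotypes overlapped. No test was made on these means, since the members were chosen with earlier results of these data known.

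**Figure D3:**
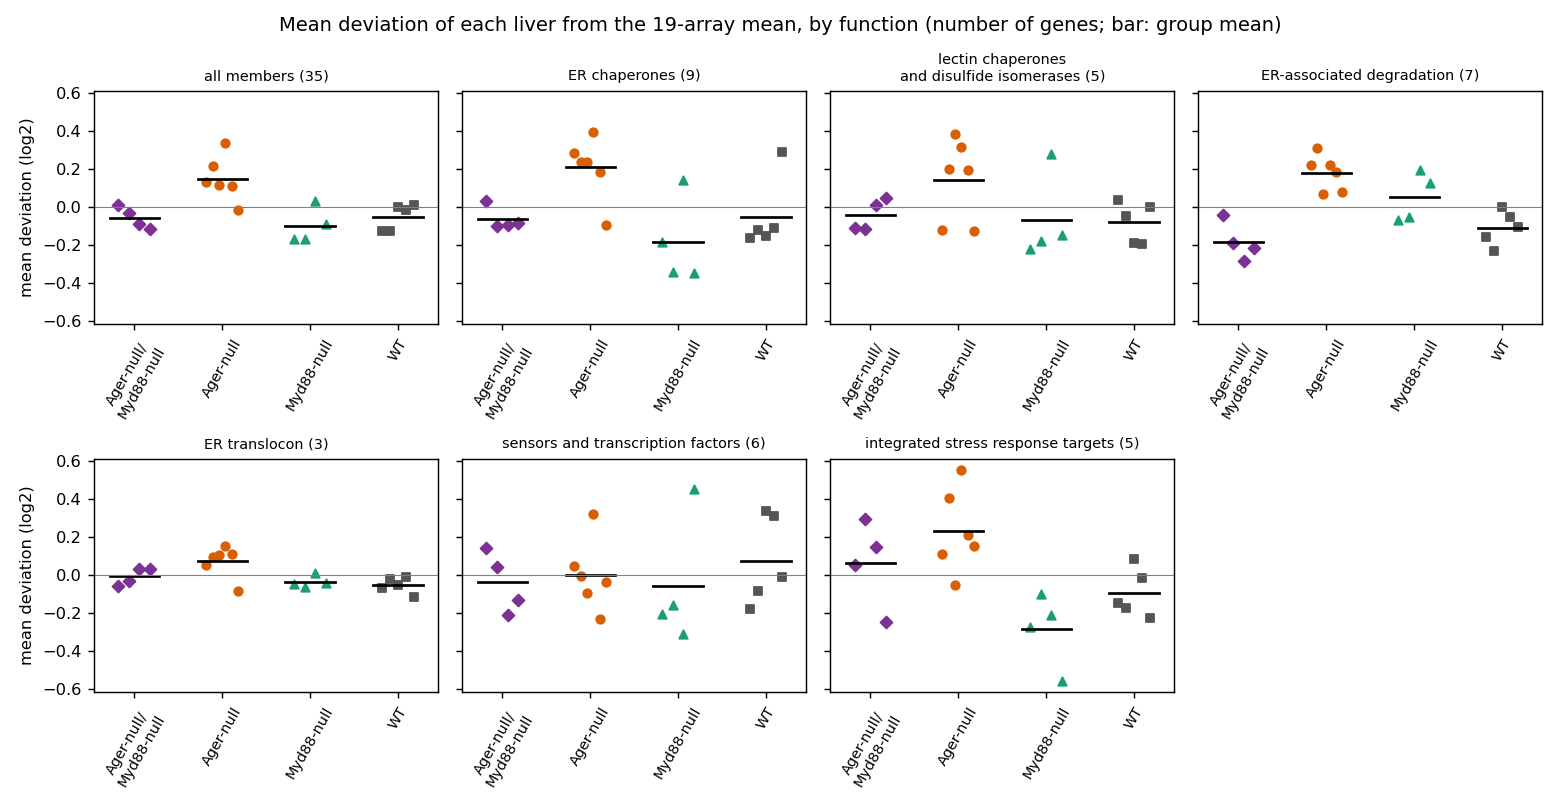
Mean deviation of each liver from the 19-array mean (y axis, log2), averaged over all 35 members and over each functional group (number of genes in brackets), for Ager-null/Myd88-null, Ager-null, Myd88-null and WT livers, with a bar at each group mean. In ER-associated degradation the 6 Ager-null points (0.07 to 0.31) lie above all Ager-null/Myd88-null and WT points and overlap the Myd88-null points. Sensors and transcription factors overlap in all groups.

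The 9 members with an ER stress element in the promoter window were all above 0 in Ager-null against WT livers (0.11 to 0.97, median 0.20), against 13 of the 21 members whose windows lacked it (median 0.05). Among all tested genes, 52.2% were above 0 in that comparison. In Ager-null/Myd88-null against Ager-null livers the same 9 were all below 0 (median -0.36), against 11 of the other 21 (median -0.05). Of the 9, Creld2 and Pdia6 were called in the first comparison, and Creld2, Pdia6 and Syvn1 in the second. Directions of the 9 were the same with median centring, quantile normalization and the S range as a block. With the mean of all probe sets, 8 of the 9 were above 0 in the first comparison, Hspa5 being the exception. Of the 19 members with several probe sets over log2 4, the sets differed in sign for Derl1, Derl2, Hspa5 and Ssr1 in Ager-null against WT livers, and for these 4 and Canx in Ager-null/Myd88-null against Ager-null livers. In Myd88-null against WT livers 5 of the 9 were above 0 (median 0.0037), against 59.2% of all tested genes. Another 5 tested genes of the array held the element (Acacb, Acnat2, Alg12, Ero1b and Pan2), all 5 above 0 in Ager-null against WT livers (median 0.64) and also in Myd88-null against WT livers (median 0.40), and none called. In Ager-null/Myd88-null against Myd88-null livers all 9 members (median -0.07, highest -0.006) and all 5 other genes (median -0.11) were below 0. Of all 8515 tested genes 4278 were below 0 there, and over 16 alternative settings 0 to 4 of the 9 members were above 0. In Ager-null/Myd88-null against Ager-null livers 4 of the 5 other genes were below 0. The comparisons share the Ager-null or WT livers and the members share pathways, so these counts are a description with no test.

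**Figure D4:**
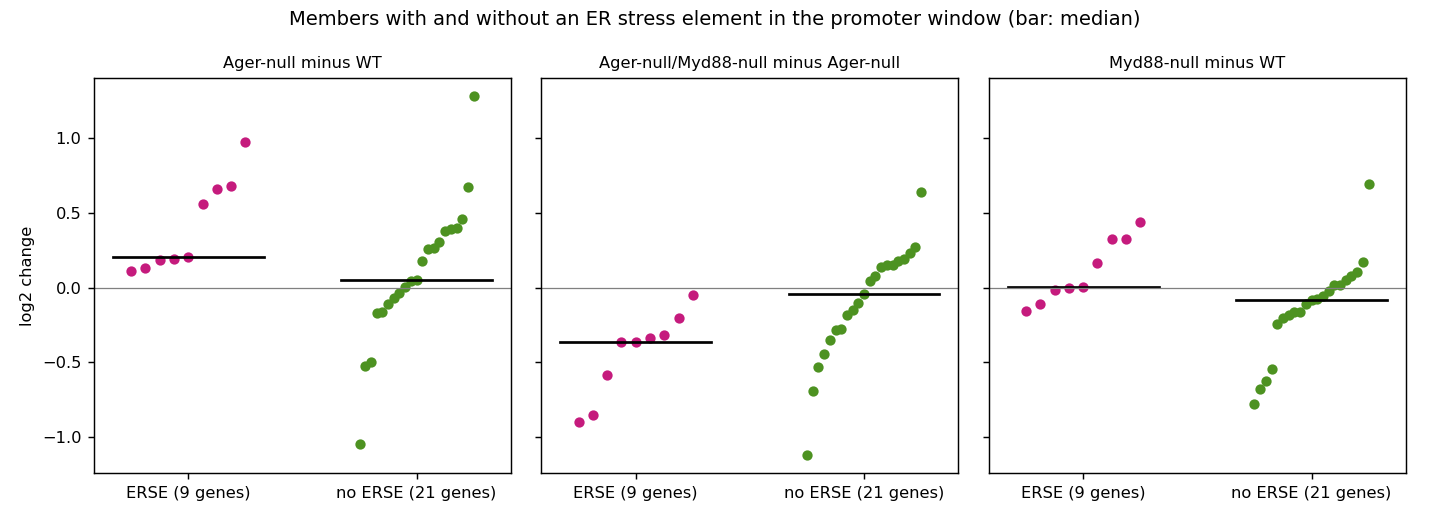
Fitted log2 change (y axis) of members with (9 genes) and without (21 genes) an ER stress element in the promoter window, 1 point per gene and a bar at the median, for Ager-null minus WT, Ager-null/Myd88-null minus Ager-null, and Myd88-null minus WT livers. The 9 genes with the element lie above 0 in the first panel and below 0 in the second, and lie on both sides of 0 in the third.

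Whether the effect of losing Myd88 depended on Ager was tested as an interaction, (Ager-null/Myd88-null minus Ager-null) minus (Myd88-null minus WT). Sel1l (-1.81 ± 0.39, adjusted p = 0.0347), Creld2 (-1.18 ± 0.28, adjusted p = 0.0388) and Syvn1 (-1.34 ± 0.33, adjusted p = 0.0465) were negative, and Atf4 (1.42 ± 0.35, adjusted p = 0.0453) was positive. In this test 2.41% of all genes were called, 0.575% positive and 1.83% negative (49 and 156, against 69 and 120 with median centring). With the mean of probe sets Atf4 was at 0.84 ± 0.22 (adjusted p = 0.0425), with median centring Syvn1 missed the threshold (adjusted p = 0.0503), and without the filter Sel1l was the 1 member called. In Sel1l and Syvn1 both single-null genotypes averaged above WT livers, and the Ager-null/Myd88-null livers averaged below them. Atf4 averaged lower than WT in each null genotype, and less so in Ager-null/Myd88-null livers. With the S range as a block no member was called: the values were -1.52 ± 0.55 (adjusted p = 0.257) for Sel1l, -0.92 ± 0.33 (adjusted p = 0.25) for Creld2, -0.96 ± 0.46 (adjusted p = 0.38) for Syvn1 and 1.80 ± 0.48 (adjusted p = 0.152) for Atf4. Leaving out 1 liver moved the count of called members between 0 and 7: 0 were called without WT 2 or 5, Ager-null 3, Myd88-null 3 or 4, or Ager-null/Myd88-null 3 or 4, and 7 without Myd88-null 1, when 1739 of all genes were called.

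The remaining 4 comparisons called none of the 35 members by limma. In Myd88-null against WT livers 0.399% of all genes were called and 3 members had an unadjusted p under 0.05 (19.6% of all genes), namely Atf4, Ppp1r15a and Sel1l (0.69 ± 0.28, adjusted p = 0.193). Array medians over the tested genes were higher by 0.116 in Myd88-null than in WT livers, and the changes given include that shift. The members' median was -0.06 beside 0.06 for all genes, with 14 of 35 above 0. With median centring it was -0.17 beside -0.05, with 7 of 35 above 0. In Ager-null/Myd88-null against WT livers 0.317% of all genes were called and 1 member (Dnajb9, -0.39 ± 0.18, adjusted p = 0.579) had an unadjusted p under 0.05, beside 8.57% of all genes. In Ager-null/Myd88-null against Myd88-null livers 0.153% were called and 3 members were under that p (16.1% of all genes), with Sel1l at -1.14 ± 0.29 (adjusted p = 0.162). In Ager-null against Myd88-null livers 1.26% were called and 11 members were under that p (15.9% of all genes), with Pdia6 at 0.58 ± 0.14 (adjusted p = 0.0535) and Creld2 at 0.65 ± 0.19 (adjusted p = 0.098). Without Myd88-null 1, Sel1l was called in 2 of these comparisons (0.93 ± 0.28, adjusted p = 0.0399, in Myd88-null against WT, and -1.38 ± 0.29, adjusted p = 0.0242, in Ager-null/Myd88-null against Myd88-null livers), as was Atf4 in the first (-0.95 ± 0.26, adjusted p = 0.0318). Without Ager-null 6 or Myd88-null 3, 3 members were called in Ager-null against Myd88-null livers, Pdia6 in both cases (0.65 ± 0.14, adjusted p = 0.0205, and 0.72 ± 0.14, adjusted p = 0.018).

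A wider list of 117 tested genes of the same pathways was read in the same fit. In Ager-null against WT livers 5 of the 117 rose and 0 fell, beside 1.26% of all genes called, and 81 were above 0. Of these calls only Rnf5 held with the S range as a block (0.78 ± 0.14, adjusted p = 0.0185), while Iars, Mogs, Prkcsh and Rpn2 did not (adjusted p 0.185 to 0.334). With 1 liver left out, Rnf5 was called in 10 of 11 fits (lost without WT 5, 0.52 to 0.64 over the fits, adjusted p up to 0.0527), and the other 4 in 2 to 4 of 11. Mogs, which encodes a glucosidase that trims glycans in the ER, changed by 0.67 ± 0.15 (adjusted p = 0.0388), and Prkcsh, a subunit gene of another such glucosidase, named after its values were seen, by 0.40 ± 0.10 (adjusted p = 0.048). Rpn2, a subunit of the oligosaccharyltransferase that adds those glycans, changed by 0.45 ± 0.10 (adjusted p = 0.0459). Prkcsh and Rpn2 averaged highest in Ager-null livers, as did Mogs. Iars, the cytosolic isoleucyl-tRNA synthetase gene, changed by 0.61 ± 0.14 (adjusted p = 0.0415). Rnf5, an ER ubiquitin ligase gene, changed by 0.58 ± 0.10 (adjusted p = 0.0177), and it is the direct neighbour of Ager on chromosome 17, with 0 genes between them. Rnf5 averaged 10.82 ± 0.06 in Ager-null/Myd88-null, 10.91 ± 0.17 in Ager-null, 10.44 ± 0.13 in Myd88-null and 10.34 ± 0.19 in WT livers. Both genotypes without Ager thus averaged above both genotypes with it. An effect of the Ager deletion on this neighbour was not tested.

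In Ager-null/Myd88-null against Ager-null livers 3 of the 117 fell and 0 rose, beside 2.44% of all genes called: Prkcsh (-0.44 ± 0.10, adjusted p = 0.039), Rpn2 (-0.44 ± 0.11, adjusted p = 0.0466) and Srp72, a subunit of the signal recognition particle that brings ribosomes to the ER (-0.77 ± 0.18, adjusted p = 0.039). All 3 calls ended with the S range as a block (adjusted p 0.1205 to 0.4301), and each held in only 2 or 3 of 10 fits with 1 liver left out. In Ager-null against Myd88-null livers 4 rose and 0 fell, beside 1.26% of all genes called. Ddit4, a stress-induced inhibitor of mTORC1, averaged 9.64 ± 0.28 in Ager-null/Myd88-null, 11.68 ± 0.49 in Ager-null, 8.85 ± 1.25 in Myd88-null and 9.96 ± 1.33 in WT livers, and changed by 2.83 ± 0.55 (adjusted p = 0.0185). Pdia5, a disulfide isomerase gene, changed by 0.52 ± 0.11 (adjusted p = 0.0213), Rnf5 by 0.48 ± 0.11 (adjusted p = 0.0383), and Srp72 by 0.79 ± 0.18 (adjusted p = 0.0361). All 4 held with the S range as a block (adjusted p 0.000876 to 0.0424), where 386 of all genes were called, against 107 without the block. All 4 ended without Myd88-null 4 (adjusted p up to 0.132 over the left-out livers), the only Myd88-null array in the S range of the Ager-null arrays. With 1 liver left out, Ddit4 and Pdia5 were each called in 9 of 10 fits, Rnf5 in 3 and Srp72 in 2. The Pdia5, Rnf5 and Srp72 calls also ended in a fit of those groups alone. The Srp72 call ended with the mean of probe sets as well. In the interaction 3 of the 117 (2.41% of all genes) were called, all negative: Os9, a lectin of ER-associated degradation (-0.57 ± 0.14, adjusted p = 0.0407), Prkcsh (-0.68 ± 0.15, adjusted p = 0.0347) and Rpn2 (-0.62 ± 0.16, adjusted p = 0.0479). These 3 calls ended with the S range as a block (adjusted p 0.253 to 0.311). In each of the other 3 comparisons 0 of the 117 were called by limma, with 17 in Myd88-null against WT (19.6% of all genes), 5 in Ager-null/Myd88-null against WT (8.57%) and 23 in Ager-null/Myd88-null against Myd88-null livers (16.1%) at an unadjusted p under 0.05.

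The range of S numbers that holds every Ager-null array was also read on its own. In the range 13 to 20 the 6 Ager-null arrays averaged 11.18 for Creld2, against 10.47 on WT 5, the single WT array there, and all 6 were higher. For Pdia6 the Ager-null arrays averaged 11.47, against 10.89 on WT 5, and all 6 were higher. For Atf4 they averaged 8.83, against 10.06 on WT 5, and all 6 were lower. With 1 WT array no test within the range was made. The single Myd88-null array of that range read 10.77 for Creld2 and lay inside the Ager-null range. Over all 35 members in that range, 20 were above 0 in Ager-null against WT 5 (median difference 0.11).

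**Figure D5:**
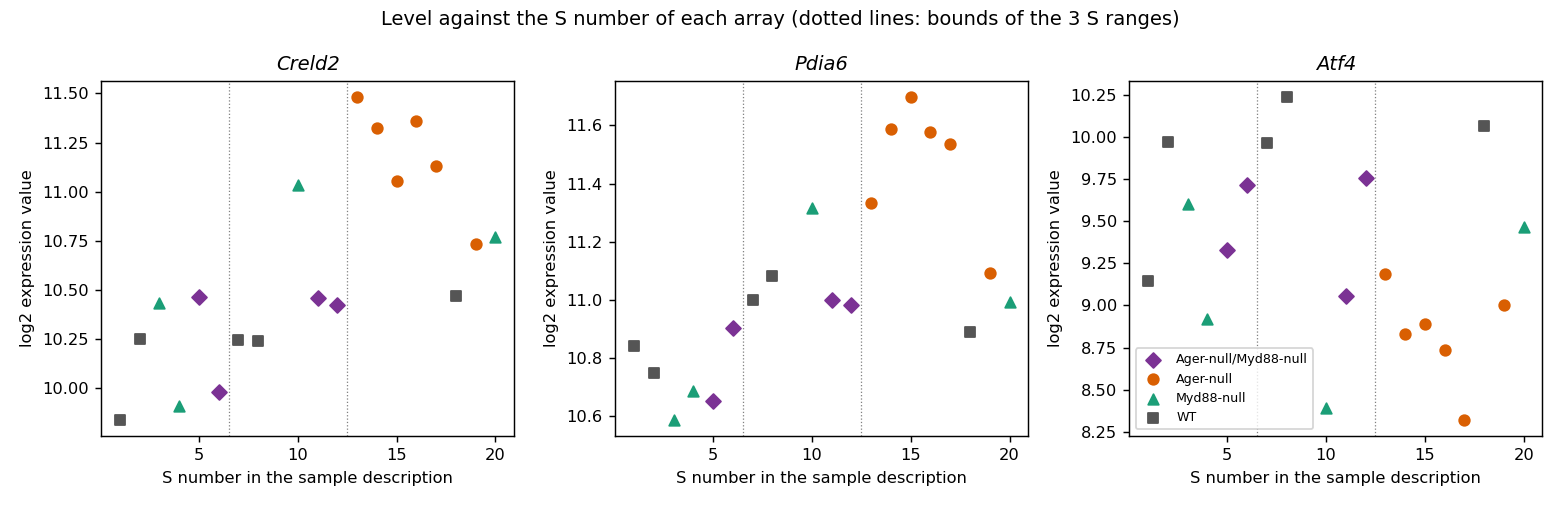
GCRMA log2 expression value (y axis) of Creld2, Pdia6 and Atf4 against the S number in each sample description (x axis, meaning not stated), 1 point per array, by genotype. Dotted lines separate the 3 S ranges chosen here (1 to 6, 7 to 12 and 13 to 20). WT 5 (S number 18) lies below the Ager-null points for Creld2 (10.47) and Pdia6 (10.89) and above them for Atf4 (10.06).

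Markers of plasma cells, which carry a large ER, moved with genotype in part. Of 11 measured plasma and B cell markers 4 passed the filter, and 7 (Mzb1, Cd79a, Cd79b, Ms4a1, Tnfrsf17, Irf4 and Prdm1) lay under it in every group. Igha averaged 6.12 ± 0.25 in Ager-null/Myd88-null, 5.30 ± 0.32 in Ager-null, 5.98 ± 0.97 in Myd88-null and 3.95 ± 0.23 in WT livers, and Jchain 4.12 ± 0.27 in Ager-null/Myd88-null, 3.47 ± 0.36 in Ager-null, 3.95 ± 0.52 in Myd88-null and 3.52 ± 0.18 in WT livers. Of the 4, Igha was above 0 in Ager-null against WT livers (1.35 ± 0.28, adjusted p = 0.0326), and Ighm, Jchain and Sdc1 were below 0 (list median -0.03) and not called. Jchain stayed under log2 4 on every Ager-null and WT array (at most 3.98 and 3.71). The Igha mean in WT livers also lay just under log2 4, so the size of its change depends on low values. Igha was highest in Ager-null/Myd88-null livers, in which Creld2, Pdia6 and Sel1l were lower than in Ager-null livers. Of 14 hepatocyte markers, 13 were above 0 in Ager-null against WT livers (median 0.09) and 13 were below 0 in Ager-null/Myd88-null against Ager-null livers (median -0.04), the directions most members had, with none called by limma. The log2 of the summed hepatocyte markers ran from 18.11 to 18.22 in Ager-null/Myd88-null, 18.20 to 18.27 in Ager-null, 18.04 to 18.24 in Myd88-null and 18.12 to 18.26 in WT livers. Of 9 stellate cell and fibroblast markers over the filter (of 11), 8 were above 0 in Ager-null against WT livers (median 0.55). Of them 1 was called, beside 1.26% of all genes. In Ager-null/Myd88-null against Ager-null livers 6 were below 0 and 3 above (median -0.13), with 1 called lower, beside 2.44% of all genes called. Their summed level ran from 12.17 to 12.39 in Ager-null/Myd88-null, 12.23 to 12.62 in Ager-null, 11.98 to 12.38 in Myd88-null and 11.83 to 12.41 in WT livers. The same sum for 15 Kupffer cell and macrophage markers had a median of 13.71 in Ager-null/Myd88-null, 13.41 in Ager-null, 13.48 in Myd88-null and 13.88 in WT livers. Of these 15, 12 were below 0 in Ager-null against WT livers (median -0.23), 14 in Myd88-null against WT livers (median -0.64), and 14 were positive in the interaction (median 0.88), with none called by limma. The part of these cell types in the members' levels was not tested.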

How the data were processed

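Liver RNA of 19 mice was measured on Affymetrix arrays. The deposited log2 values were made by the authors with GCRMA 2.16, per the submitters' processing notes. Of 45101 probe sets, 64 were controls, 34945 named 1 gene, 932 several and 9160 none. Each gene was read from the probe set with the highest mean, and genes over log2 4 on at least 4 arrays were tested (8515). The 4 genotypes entered 1 limma 3.58.1 fit (R 4.3.3, lmFit and eBayes), with Benjamini-Hochberg adjustment over all tested genes and calls at 0.05. The fit was also run on simulated arrays with independent noise. Those arrays held no S range effect and no stray array, so that run does not bear on either. The members and lists were chosen with earlier results of these data known. All 35 members are described, and values by liver are given for called members and, in each functional group, for those with the highest mean and the largest SD. Of other pathway genes those called are named, at most 4 per comparison by p. Replicate numbers did not pair the samples (closing section). The array number limits precision. Alternatives were other scalings, filters, blocks, probe set means and leaving out each liver.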

Additional observations from a re-analysis of the deposited data

Results flagged for a closer look

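In 140 groups of livers (35 members in 4 genotypes), 12 held a liver far from the others by Dixon's test, where chance gives about 1 in 20 groups. Myd88-null 3 was the stray high liver for Pdia3 (12.93, others 12.10 to 12.15), Pdia4 (8.64, others 7.81 to 7.92), Derl3 (5.52, others 4.63 to 4.76) and Sesn2 (4.92, others 4.65 to 4.67). Among Ager-null livers, Ager-null 6 was low for Calr (13.37, others 13.61 to 13.73), Ager-null 4 was high for Edem1 (10.99, others 10.94 to 10.95), and Ager-null 2 was high for Derl3 (6.60, others 4.80 to 5.07). Among WT livers, WT 1 was low for Atf4 (9.14, others 9.96 to 10.24) and high for Trib3 (7.15, others 6.10 to 6.34). WT 5 was high for Pdia3 (12.87, others 12.33 to 12.45), and WT 4 for Herpud1 (13.25, others 13.05 to 13.10). Ager-null/Myd88-null 2 was low for Creld2 (9.98, others 10.42 to 10.46).

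The interaction term of the limma fit was called for 4 of the 35 members and 3 of the 117 other pathway genes, beside 2.41% of all tested genes. The interaction was -1.18 (log2, adjusted p = 0.0388) for Creld2, -1.34 (0.0465) for Syvn1, -1.81 (0.0347) for Sel1l and 1.42 (0.0453) for Atf4. It was -0.57 (0.0407) for Os9, -0.68 (0.0347) for Prkcsh and -0.62 (0.0479) for Rpn2. None of these 7 genes was called with the S range as a block, where 0 of all genes were. Without Myd88-null 3, Myd88-null 4 or Ager-null/Myd88-null 3, 0 of all genes were called either.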

How the results depend on the processing

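Of 4870 values of single genes under the alternatives, 273 lost a call and 24 gained one, and 0 values called under either setting changed sign. Of the 4314 called under neither setting, 272 changed sign, in 84 pairs of gene and comparison. Members called in Ager-null against WT livers (3) numbered 1 without the filter, 0 with the S range as a block, and 1 to 4 with 1 liver left out. In Ager-null/Myd88-null against Ager-null livers (4) they numbered 1 without the filter, 2 with the replicate block, 0 with the S range as a block, and 0 to 3 with 1 liver left out. In Ager-null against Myd88-null livers (0) they numbered 1 after quantile normalization, 2 after median centring, 1 with the replicate block, and 0 to 3 with 1 liver left out. In the interaction (4) they numbered 1 without the filter, 0 with the replicate block, 0 with the S range as a block, and 0 to 7 with 1 liver left out. The ranges were 0 to 2 in Myd88-null against WT, 0 to 1 in Ager-null/Myd88-null against Myd88-null and 0 to 0 in Ager-null/Myd88-null against WT livers.

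Counts over all genes moved by more than 1.5 times as follows. Ager-null against WT (107) gave 43 without the filter, 59 with the S range as a block, 33 in a fit of those groups alone and 16 to 235 with 1 liver left out. Ager-null/Myd88-null against Ager-null (208) gave 91 without the filter, 138 with the replicate block, 120 with the S range as a block and 18 to 141 with 1 liver left out. Ager-null against Myd88-null (107) gave 386 with the S range as a block, 28 in a fit of those groups alone and 30 to 179 with 1 liver left out. Myd88-null against WT (34) gave 11 after quantile normalization, 12 after median centring, 86 with the S range as a block, 7 in a fit of those groups alone and 10 to 987 with 1 liver left out. Ager-null/Myd88-null against Myd88-null (13) gave 3 with the replicate block, 5 with the S range as a block, 4 in a fit of those groups alone and 2 to 446 with 1 liver left out. Ager-null/Myd88-null against WT (27) gave 46 with the replicate block and 18 to 29 with 1 liver left out. The interaction (205) gave 76 without the filter, 37 with the replicate block, 0 with the S range as a block and 0 to 1739 with 1 liver left out. A fit of only the groups compared does not apply to it. The cause was not tested.

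Same-numbered livers did not deviate together: over 25 such pairs the correlation of deviations ran from -0.302 to 0.471 (median 0.0522), against -0.447 to 0.438 (median 0.00467) over 109 other pairs. The replicate block therefore stands only as an alternative. With it the Sel1l and Syvn1 calls in Ager-null/Myd88-null against Ager-null livers ended (adjusted p = 0.0754 and 0.0886), as did all 4 members' calls in the interaction. Depth does not apply to arrays, and genes near the filter, such as Ddit3, limit what low levels can show.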
